A study of Mus musculus with 18 samples.

Results

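The ATP-binding cassette (ABC) transporters and the organic anion and cation carriers of the Slco, Slc22a and Slc47a families were followed over the day in mouse liver. Members were the genes of the deposited table whose symbol begins with Abca, Abcb, Abcc, Abcd, Abcg, Slco, Slc22a or Slc47a and a number, leaving out Abcb11. They numbered 57 of the 14451 genes listed, namely 10 Abca, 8 Abcb, 8 Abcc, 4 Abcd, 5 Abcg, 14 Slc22a, 1 Slc47a and 7 Slco genes. Whole livers of wild-type (WT) male mice aged 8 to 9 weeks were taken at zeitgeber time (ZT, the hours since lights on) 1, 5, 9, 13, 17 and 21 under 12 h of light and 12 h of dark. All 6 groups share this genotype and housing and carry no treatment, so they differ in the labels only by the time of collection. Poly(A) RNA of 3 livers was sequenced at each time, chosen for RNA quality from 5 mice kept per group, so the 18 livers are 18 animals and none was followed over time. A liver gave between 10268168 and 23242842 estimated reads, with a median of 12078875. No pair of livers of 1 time held identical values, and each pair differed by more than counting noise (chi-square of 6.63 to 50.1 per gene). A value below is the deposited normalized value, which is scaled to 1000000 reads of an adjusted library size, and replicate numbers only name the livers. Because whole liver was measured, fewer cells of a type and less RNA per cell cannot be told apart.

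ABC exporters use ATP to push a substrate out of the cell or into an organelle. In the hepatocyte they sit on the canalicular side, which faces bile, or on the sinusoidal side, which faces blood. The Slco and Slc22a carriers sit mostly on the sinusoidal side and bring in bile acids, bilirubin conjugates, hormones, drugs and organic ions without splitting ATP. Abcb4 passes phosphatidylcholine to bile, Abcg5 and Abcg8 form the heterodimer that passes cholesterol and plant sterols to bile, and Abcc2 exports glucuronide and glutathione conjugates.

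Start regions of 4 of the rhythmic members described below are shown first, from the RefSeq promoter windows of GRCm38.p6, which run from 250 bases before to 50 after each gene's start. Abcg5 and Abcg8 lie head to head on chromosome 17, and their starts, at 84683011 on the minus strand and at 84683121 on the plus strand, are 110 bases apart by RefSeq. The annotation's model of the whole Abcg8 gene begins earlier, at 84676302 inside Abcg5, through a longer transcript. The window chr17:84682871-84683170 holds both and is given on the plus strand, with the bases from one start to the other in capitals. The window of Abca8b, chr11:109995796-109996095 on the minus strand, and that of its neighbour Abca8a, chr11:110095888-110096187 on the minus strand, carry their E-box in capitals and were chosen for printing after the motif search.
Abcg5/Abcg8: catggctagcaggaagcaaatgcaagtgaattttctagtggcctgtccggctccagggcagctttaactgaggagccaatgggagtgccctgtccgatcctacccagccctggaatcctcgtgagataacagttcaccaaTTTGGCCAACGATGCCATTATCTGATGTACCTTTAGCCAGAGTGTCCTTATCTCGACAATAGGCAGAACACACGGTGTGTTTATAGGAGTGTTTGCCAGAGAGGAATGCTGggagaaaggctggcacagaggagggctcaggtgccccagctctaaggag
Abca8b: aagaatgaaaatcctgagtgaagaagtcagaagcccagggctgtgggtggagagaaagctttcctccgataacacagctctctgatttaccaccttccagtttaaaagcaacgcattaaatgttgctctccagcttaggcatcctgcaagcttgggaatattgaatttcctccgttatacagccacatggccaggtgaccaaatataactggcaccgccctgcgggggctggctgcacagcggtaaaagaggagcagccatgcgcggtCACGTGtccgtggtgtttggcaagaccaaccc
Abca8a: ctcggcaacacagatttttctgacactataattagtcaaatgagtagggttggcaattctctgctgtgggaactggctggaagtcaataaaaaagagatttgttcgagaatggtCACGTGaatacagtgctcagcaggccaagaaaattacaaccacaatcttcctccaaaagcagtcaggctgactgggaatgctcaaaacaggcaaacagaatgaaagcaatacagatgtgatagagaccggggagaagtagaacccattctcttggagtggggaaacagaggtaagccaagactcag
Of the 57 members, 42 had a window in the RefSeq table. The E-box CACGTG, the letters bound by the CLOCK and BMAL1 pair, stood in 5 of these 42 windows (11.9%), those of Abca1, Abca8a, Abca8b, Abcc4 and Slc22a4, beside 8.09% of the 27025 windows of all genes. Its first base was base 19 of Abca8b, with the start counted as base 1, and stood 136 bases before the start of Abca8a. Of the 5 genes with an E-box, Abca8a, Abca8b and Abcc4 were called in the 24 h test below, and Abca1 and Slc22a4 were not. The D-box TTANGTAA, read by DBP, TEF and HLF, was found in 1 window (2.38%, beside 2.72% of all). The ROR element TAGGTCA stood in 1 window, that of Slco1a1 (2.38%, beside 2.97%). The nuclear receptor hexamer AGGTCA, which the ROR element contains, stood in 7 (16.7%, beside 18.1%). The antioxidant element TGACNNNGC stood in 6 windows (14.3%, beside 14.0%). Both strands were searched for each motif, and a match is a description of the letters alone.

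A 24 h rhythm was called for 24 of the 57 members (42.1%) by limma's test of a 24 h cosine, at an adjusted p below 0.05, and for 35.3% of the 14449 genes tested. All 57 members were tested, and 52 had a mean value of at least 1. Of those 52, 46.2% were called, beside 39.1% of all genes with such a mean. The fitted peak fell in the light phase for 20 of the called members and in the dark for 4, although the highest time mean of Abcb1a, Abcb6 and Slc22a15, among those with a light peak, was in the dark. Among all genes tested, 18.2% were called with a peak in the light and 17.1% with a peak in the dark. Seen as shares of the called genes, 16.7% of the called members and 48.4% of all called genes peaked in the dark. Within the light phase, 8 members peaked before ZT6, beside 10% of all genes, and 12 after it, beside 8.22%. Under the cosine curve of CircaN, with a free period and an R-squared of at least 0.7, 9 members kept their call, beside 11.2% of all genes called, and these were Abca2, Abca6, Abca8b, Abcb4, Abcc2, Abcg5, Abcg8, Slc22a15 and Slco2a1. The 4 with a dark peak were Slc47a1, Slc22a7, Slco2a1 and Abca7.

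**Figure D1:**
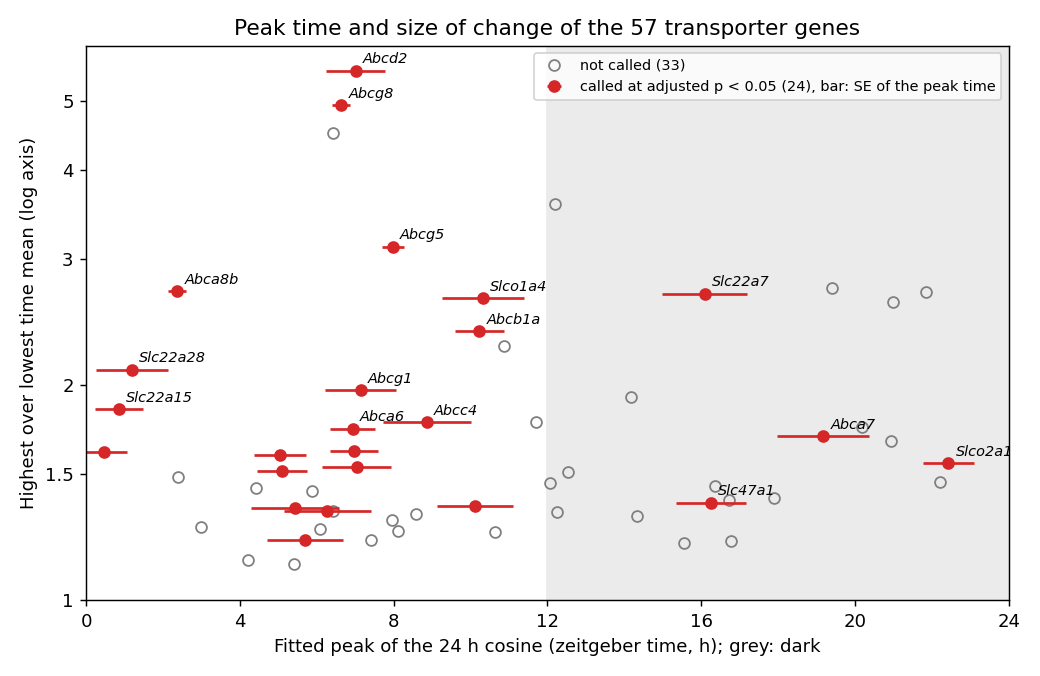
Fitted peak time of the 24 h cosine (x axis, hours of zeitgeber time, the dark phase in grey) against the highest over the lowest time mean (y axis, log scale) for the 57 members. Filled red points are the 24 called members with the standard error (SE) of the peak time as a bar, and open points are the 33 not called. The called members lie mostly between ZT0 and ZT12, and Abcd2 and Abcg8 have the largest ratios among them, 5.51 and 4.93.

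The size of the change can be set beside that of other genes. The median of the highest over the lowest time mean, called the ratio below, was 1.52 over the members and 1.48 over all genes tested, and among called genes it was 1.72 and 1.61. Of the 57 members, 19 were called with a ratio of at least 1.5, beside 21.4% of all genes, and 8 with a ratio of at least 2, beside 9.64%. The 6 times differed by limma's F test in 19 members, beside 26.3% of all genes. A 12 h term, for 2 peaks a day, was called for 0 members by limma at an adjusted p below 0.05, beside 0.872% of all genes, and 7 members had an unadjusted p below 0.05, beside 12.6%. The rank method JTK called 12 members, beside 14.6% of all genes, and MC, which combines JTK with a Lomb–Scargle periodogram, called 12, beside 18.6%. With 1 liver left out JTK called 4 to 10 members and MC 9 to 13. The lowest JTK count was that without ZT5 replicate 2, when JTK called 8.99% of all genes. Limma, JTK and MC together called 11 members, beside 14.4% of all genes. In 45 members the livers of the highest time and those of the lowest did not overlap, beside 70.8% of all genes.

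**Figure D2:**
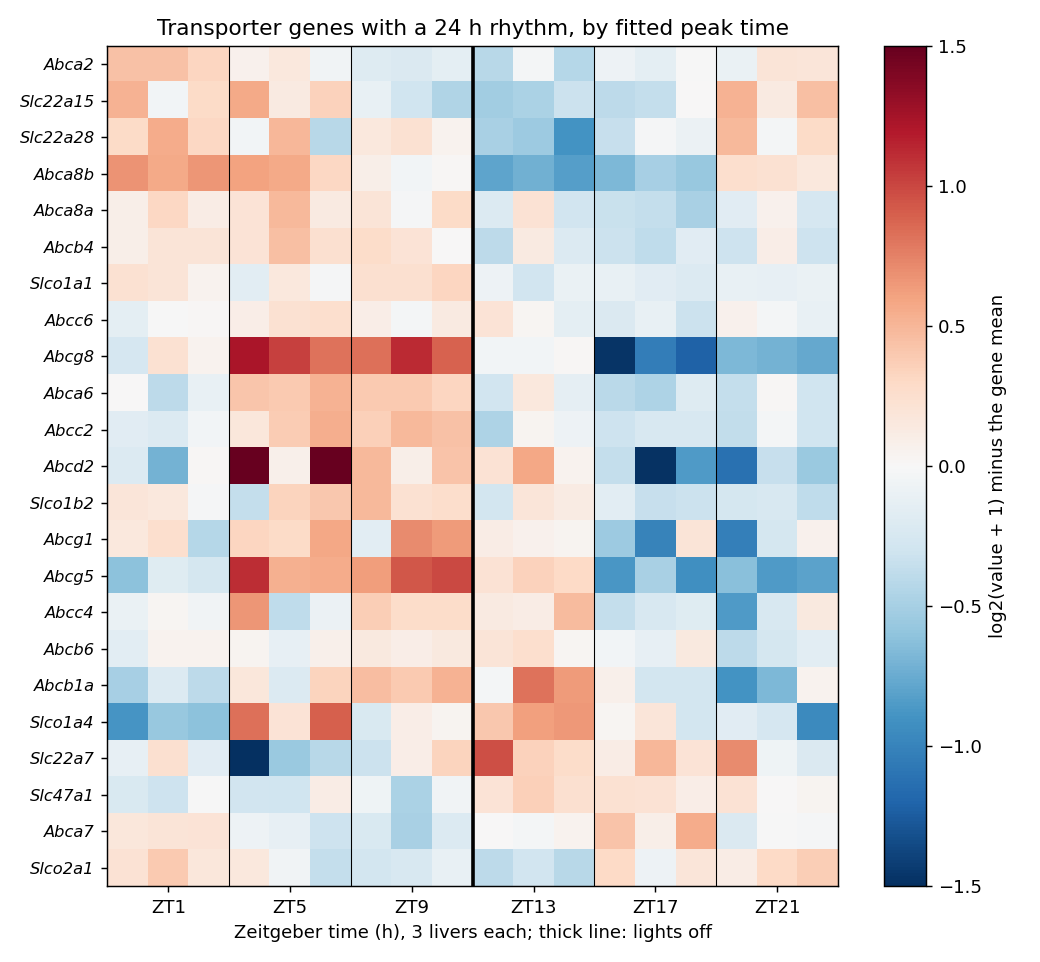
Values of 23 of the 24 called members in each of the 18 livers, as log2(value + 1) minus the mean of the gene (colour scale, cut at 1.5 either way), with genes ordered from the earliest to the latest fitted peak and livers grouped by ZT. The thick line marks lights off. Most rows are red before it and blue after it, with Abcg5, Abcg8 and Abcd2 the strongest, and the last rows, among them Slc22a7, Slc47a1 and Abca7, are red in the dark.

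Most changes called between neighbouring times fell at 2 steps, and the same 2 steps held the most calls among all genes. From ZT1 to ZT5, 6 members rose (2.53% of all genes rose) and 0 fell (2.36% of all genes fell). The risers were Abca6, Abcc2, Abcd2, Abcg5, Abcg8 and Slco1a4, by between 0.51 and 1.55 on the log2 scale. From ZT9 to ZT13, across lights off, 7 members fell (4.6% of all genes) and 1 rose (4.64%). Those that fell were Abca6, Abca8b, Abcc2, Abcg5, Abcg8, Slc22a28 and Slco1a1, and the 1 that rose was Slc47a1. From ZT13 to ZT17 the 2 members that fell were Abcg5 and Abcg8 (0.533% of all genes fell), and 0 rose (0.671%). From ZT5 to ZT9 Abca8b fell (0.9% of all genes) and 0 members rose (0.637%). From ZT17 to ZT21 Abca8b rose (0.941% of all genes) and 0 members fell (0.568%). No member passed in either direction from ZT21 to ZT1, where 0.0277% of all genes rose and 0.104% fell.

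Among the 8 canalicular exporters 6 were called, beside 35.3% of all genes, 5 with a peak in the light (18.2% of all genes) and 1 in the dark (17.1%). Abcg8 (GRCm38, chr17:84676302-84700333, plus strand) had the largest fold change of them. Its values were 48.8, 68.2 and 60.5 at ZT1, 137, 119 and 103 at ZT5 and 104, 128 and 108 at ZT9. In the dark they were 56.8, 56.7 and 59.01 at ZT13, 20.4, 27.99 and 24.7 at ZT17 and 36.2, 35.4 and 33.9 at ZT21. Every liver of ZT5 and ZT9 lay above every other liver, and the lowest livers were all of ZT17. The mean fell 4.93-fold from 120.0 ± 16.9 (SD, n = 3) at ZT5 to 24.4 ± 3.80 at ZT17. The cosine had an amplitude, which is its peak above its mean on the log2(value + 1) scale, of 1.13 ± 0.07 (SE) and a peak at 6.63 h (95% interval 6.18 to 7.08 h, limma adjusted p = 1.28e-08).

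Abcg5 (chr17:84658234-84683011, minus strand), the partner of Abcg8, gave 39.6, 53.9 and 50.8 at ZT1, 133, 89.2 and 90.6 at ZT5 and 95.3, 118 and 122 at ZT9. It then gave 71.2, 78.2 and 75.2 at ZT13, 33.03, 43.2 and 31.9 at ZT17 and 39.1, 33.5 and 34.6 at ZT21. The ZT5 and ZT9 livers again stood above all others, ZT13 came next as a group of its own, and ZT17 and ZT21 overlapped. The amplitude was 0.93 ± 0.07 and the peak was at 7.97 h (95% interval 7.41 to 8.53 h), with an adjusted p of 2.03e-07. The peak interval began later than that of Abcg8 ended, and the difference between them was not tested. Both fell at ZT13, to 74.9 in Abcg5 and 57.5 in Abcg8, and Abcg8 rather than Abcg5 was then back within the range of its ZT1 livers. The 2 genes share 82 bases of exon on opposite strands, 3.02% of Abcg5 and 2.19% of Abcg8, and the counting is not stated to use strand.

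Abcc2 (chr19:43782192-43840740, plus strand), the exporter of conjugates, gave 472, 464 and 519 at ZT1, 602, 693 and 781 at ZT5 and 686, 749.8 and 723 at ZT9. From lights off on it gave 387, 551 and 504, then 431, 449.9 and 453 at ZT17 and 413, 523 and 434 at ZT21. All 6 livers of ZT5 and ZT9 were above the 12 others. The ratio was 1.62, the peak was at 6.96 h (95% interval 5.73 to 8.19 h) and the adjusted p was 0.000553. Abcb4 (chr5:8893717-8959231, plus strand), the phosphatidylcholine exporter, moved with less contrast, from 271 ± 25.5 at ZT5 to 179 ± 13.6 at ZT17. Its 3 livers of ZT5, at 254, 301 and 259.6, lay above those of ZT17, at 175, 168 and 194, and the peak was at 5.08 h (95% interval 3.8 to 6.36 h, adjusted p = 0.000786). Abcb1a, an exporter of many drugs whose gene lies beyond Abcb1b in the same row on chromosome 5, was low, with 16.2 to 108 estimated reads per liver. Abcb1a gave 5.03, 4.78 and 5.30 at ZT9 and 3.29, 6.73 and 5.82 at ZT13, beside 2.10, 2.81 and 2.34 at ZT1 and 1.35, 1.74 and 3.56 at ZT21. The livers of its highest time, ZT13, and lowest time, ZT21, overlapped, and the fitted peak was at 10.2 h (95% interval 8.97 to 11.5 h) with an adjusted p of 0.000672 and no call under a free period. For its close paralog Abcb1b the adjusted p was 0.479, and reads shared by the pair are divided by estimate.

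Slc47a1, which moves organic cations into bile in exchange for protons, was the canalicular gene with a peak in the dark. It gave 85.2, 80.6 and 99.3 at ZT1, 81.7, 80.8 and 108 at ZT5 and 95.5, 71.3 and 96.6 at ZT9. In the dark it gave 115, 128 and 118 at ZT13, 117, 116 and 107 at ZT17 and 116, 101 and 103 at ZT21. All 3 livers of ZT13 were above every liver of the light phase, and the step from ZT9 to ZT13 was 0.46 on the log2 scale (adjusted p = 0.0434). The change was small, 1.37-fold, with a peak at 16.3 h (95% interval 14.5 to 18 h), an adjusted p of 0.0101 and no call under a free period. Abcg2, which exports urate and conjugates, had a mean of 85.02 at ZT5 and 118 at ZT17 and did not pass (adjusted p = 0.165).

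**Figure D3:**
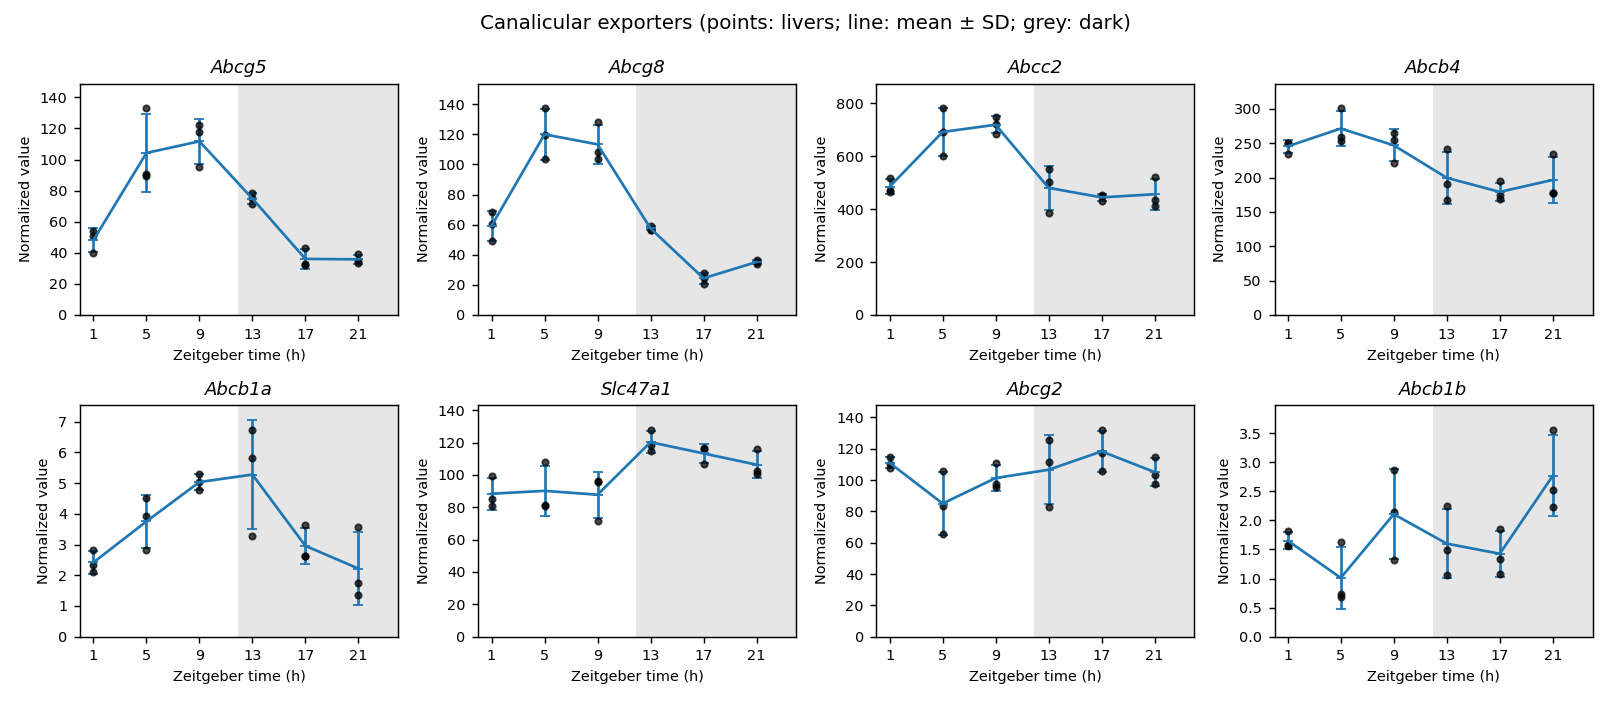
Normalized value (y axis, from 0) of the 8 canalicular exporters against zeitgeber time in hours, with a point per liver, the line through the mean of 3 livers and the SD as a bar; grey is the dark phase. Abcg5, Abcg8 and Abcc2 share a high at ZT5 and ZT9, Slc47a1 is higher in the dark, and Abcg2 and Abcb1b did not pass the 24 h test.

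Of the 5 sinusoidal exporters 2 (40.0%) were called, near the 35.3% of all genes, and both were close to the threshold. Abcc6, whose loss in people causes ectopic mineralization, gave 163, 179 and 182 at ZT5 and 131, 141 and 121 at ZT17, which did not overlap, with an adjusted p of 0.0368. The call was lost when either ZT5 replicate 2 or 3, ZT9 replicate 1 or 3, any liver of ZT17 or ZT21 replicate 3 was left out (adjusted p up to 0.0903) and under the cosine with a free period. Abcc4, an exporter of cyclic nucleotides and bile acids, rested on 9 to 49 estimated reads per liver, with an adjusted p of 0.0379 and a ratio of 1.78. It was lost without any of 10 livers, those of ZT9 and ZT17, ZT13 replicates 1 and 3 and ZT21 replicates 1 and 2 (adjusted p up to 0.105). With all livers it was also lost with no pseudocount (adjusted p = 0.0530), with liver weights (0.0778) and under a cosine with a free period. Abca1, which loads cholesterol onto apolipoprotein A-I, was at 195 at ZT5 and 234 at ZT13 and did not pass (adjusted p = 0.783). Abcc3, a sinusoidal exporter of conjugates, did not pass either (ratio 1.26, adjusted p = 0.412), nor did Abcc5 (ratio 1.38, adjusted p = 0.17), although Abcc5 passed at 0.0420 without ZT13 replicate 1.

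Of the 10 sinusoidal uptake carriers 5 were called, beside 35.3% of all genes, 3 with a peak in the light (18.2% of all genes) and 2 in the dark (17.1%). The count was 3 when ZT1 replicate 1, ZT5 replicate 2, ZT17 replicate 2 or ZT21 replicate 3 was left out. Slco1b2 (chr6:141629518-141686646, plus strand), the main organic anion uptake carrier of the mouse hepatocyte, had the highest level of all members per length, 207 per kb of exon. It gave 1137, 1115 and 988 at ZT1, 777, 1261 and 1325 at ZT5 and 1398, 1168 and 1197 at ZT9. After lights off it gave 825, 1138 and 1089 at ZT13, 899, 786 and 797 at ZT17 and 834, 845 and 769 at ZT21. ZT9 was above all livers of ZT17 and ZT21, and ZT5 replicate 1, at the level of ZT21, stood apart from the other two livers of its time. The ratio was 1.54 and the peak was at 7.04 h (95% interval 5.28 to 8.8 h, adjusted p = 0.00946), and it was not called under the cosine with a free period.

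Slco1a1, a second bile acid and steroid carrier, lay between 543 at ZT17 and 732 at ZT9. Its 3 livers of ZT9, at 719, 716 and 760.0, were above all livers of ZT5 and of the dark. It was called at an adjusted p of 0.04, and the call was kept only when ZT5 replicate 1, ZT5 replicate 3 or ZT13 replicate 2 was the liver left out, the 15 others giving up to 0.0730, and it was lost under a free period. The F test over the 6 times gave 0.00814. Slco1a4, the carrier that also takes up cardiac glycosides, had 2 highs. Its values were 14.3, 18.1 and 17.5 at ZT1, 48.9, 31.5 and 51.6 at ZT5 and 23.1, 29.3 and 27.9 at ZT9. They were 36.3, 42.2 and 43.4 at ZT13, 27.7, 30.99 and 22.2 at ZT17 and 24.1, 22.7 and 13.6 at ZT21. The livers of ZT5 and of ZT13 all lay above those of ZT9 between them. The rise from ZT1 to ZT5 was 1.33 on the log2 scale (adjusted p = 0.00154), while the fall to ZT9 (adjusted p = 0.151) and the rise to ZT13 (adjusted p = 0.0943) did not pass. Its 12 h term had an unadjusted p of 0.0470 and an adjusted p of 0.389, and the 24 h call (0.0258) was lost without ZT1 replicate 1 (0.0502) or ZT21 replicate 3 (0.0635) and under a free period. These Slco1a genes lie side by side on chromosome 6 and are close paralogs, so their values depend on how shared 50-nt reads were divided.

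Slco2a1 (chr9:102988712-103096002, plus strand), the prostaglandin carrier, had the latest peak of the called members. It gave 108, 123 and 105 at ZT1, 105, 90.1 and 72.8 at ZT5 and 77.2, 79.2 and 86.5 at ZT9. It gave 71.01, 76.4 and 69.9 at ZT13, 116, 88.9 and 106 at ZT17 and 101, 116 and 121 at ZT21. The livers of ZT13 were all below those of ZT17, ZT21 and ZT1. The ratio was 1.55 and the peak was at 22.4 h (95% interval 21.2 to 23.7 h, adjusted p = 0.000779). Slco2a1 is known from endothelial cells, and the summed value of the 6 endothelial markers (Pecam1, Stab2, Kdr, Lyve1, Clec4g and Cdh5, with Kdr the most abundant and none at 0 reads) was read beside it. That sum was highest at ZT5, 219.5, 173 and 182 in the 3 livers, and lowest at ZT21, 90.4, 143 and 139.95. At the other times it was 179.8, 133 and 115 at ZT1, 148, 192 and 169 at ZT9, 177, 126 and 177 at ZT13 and 141, 86.1 and 170.2 at ZT17. The part of these cells in the rhythm of Slco2a1 was not tested.

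Slc22a7, a carrier of organic anions such as prostaglandins and urate, was lowest at ZT5 and peaked in the dark. It gave 9.93, 26.7 and 29.4 at ZT5 and 78.6, 50.7 and 48.2 at ZT13, which did not overlap, and 65.7, 37.99 and 34.03 at ZT21. The ratio was 2.69, the peak was at 16.1 h (95% interval 13.9 to 18.2 h) and the adjusted p was 0.032. It was not called without ZT5 replicate 2 (0.0577), ZT13 replicate 1 (0.0568) or ZT17 replicate 2 (0.0534), nor under the cosine with a free period. The carnitine carrier Slc22a5 ran from 16.1 ± 2.40 at ZT1 to 24.4 ± 2.78 at ZT9 with an adjusted p of 0.0595, and it passed without ZT13 replicate 1 or ZT21 replicate 2, at as low as 0.0107. With all livers Slc22a5 also passed with a variance trend (0.0446) and with liver weights (0.0316). Slc22a3, an organic cation carrier at a mean of 3.15, had an adjusted p of 0.0857 and passed without ZT5 replicate 3 or ZT9 replicate 2, at as low as 0.0208. Slc22a4 (0.308) and Slco2b1 (0.928), an anion carrier with the smallest ratio of the group, 1.14, did not pass.

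**Figure D4:**
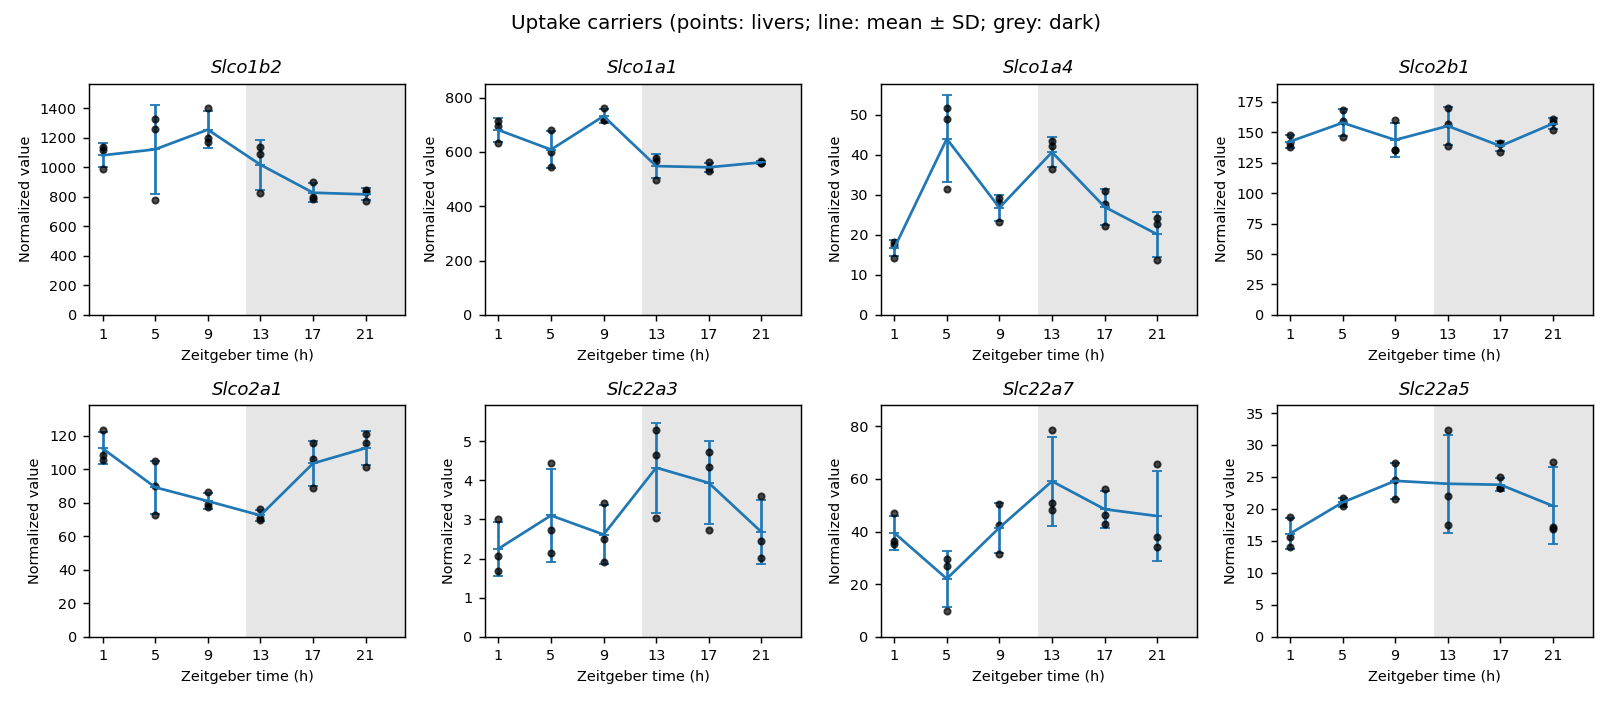
Normalized value (y axis, from 0) of 8 of the 10 sinusoidal uptake carriers against zeitgeber time in hours, with a point per liver, the line through the mean of 3 livers and the SD as a bar; grey is the dark phase. Slco1b2 is lowest at ZT17 and ZT21, Slco1a4 has highs at ZT5 and ZT13, Slco2a1 is lowest at ZT13, and Slco2b1, Slc22a3 and Slc22a5 did not pass the 24 h test.

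Among the 3 peroxisomal transporters, which bring fatty acyl-CoA into the peroxisome for shortening, Abcd2 alone was called, 33.3% of them beside 35.3% of all genes. Abcd2 (chr15:91145871-91191799, minus strand), the very-long-chain and polyunsaturated fatty acid carrier, gave 10.9, 7.38 and 12.9 at ZT1, 56.9, 13.5 and 40.8 at ZT5 and 18.2, 13.5 and 17.5 at ZT9. It gave 15.00, 19.4 and 13.3 at ZT13, 9.67, 3.90 and 6.60 at ZT17 and 5.32, 9.83 and 8.33 at ZT21. At ZT5, replicates 1 and 3 were the highest of all livers, while replicate 2 lay within the range of ZT13. All livers of ZT5 were above those of ZT17. The ratio of 5.51 was the largest among called members and became 4.03 without ZT5 replicate 1 and 7.27 without replicate 2. The amplitude was 0.91 ± 0.18 and the peak was at 7.01 h (95% interval 5.5 to 8.52 h, adjusted p = 0.00314, and up to 0.00824 with any 1 liver left out), and the call was lost under the cosine with a free period. Abcd3, which takes up branched and dicarboxylic acyl-CoA, was far higher per length, 108 per kb beside 2.64, and did not pass (adjusted p = 0.273).

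Of the 6 mitochondrial and lysosomal ABC proteins 2 (33.3%) were called, near the 35.3% of all genes, both with small changes. Abcb6, a porphyrin carrier, ranged from 53.97 ± 4.49 at ZT21 to 73.1 ± 5.97 at ZT13, with a peak at 10.1 h (95% interval 8.18 to 12.1 h), an adjusted p of 0.0172 and no call under a free period. Of its exon bases 55.2% are shared with the gene model Gm29253 on the same strand, so its value may hold reads of both. Abcb10, needed for heme synthesis, did not pass (adjusted p = 0.524).

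The 9 measured lipid-related ABC proteins outside these groups held 6 called genes, beside 35.3% of all genes, 5 with a peak in the light (18.2% of all genes) and 1 in the dark (17.1%). Abcg4, also listed in that group, was not among the genes tested. Abca8b (chr11:109932190-109995845, minus strand), a sterol exporter, fell from ZT5 to ZT13 and rose again from ZT17. It gave 114, 106 and 113 at ZT1, 108, 105 and 88.3 at ZT5 and 75.3, 69.02 and 71.6 at ZT9. It gave 40.7, 42.5 and 39.6 at ZT13, 43.9, 49.8 and 47.5 at ZT17 and 84.6, 83.5 and 79.02 at ZT21. The 3 livers of ZT13, ZT17, ZT9 and ZT21 each formed a group that overlapped no other, and ZT1 and ZT5 were the highest. The fold change was 2.71, the amplitude 0.73 ± 0.04 and the peak 2.36 h (95% interval 1.9 to 2.82 h, adjusted p = 1.56e-08). The peak was among the earliest of the called members and preceded the intervals of Abcg5, Abcg8 and Abcc2.

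Abca8b lies in a row of 5 Abca genes on the minus strand of chromosome 11, followed by Abca8a, Abca9, Abca6 and Abca5 from left to right. Abca8a, its closest paralog, gave 176 ± 23.7 at ZT5 and 109.9 ± 6.22 at ZT17, with a peak at 5.04 h (95% interval 3.71 to 6.36 h, adjusted p = 0.00107, not called under a free period). Abca6 rose from 157 ± 22.1 at ZT1 to 239.8 ± 11.7 at ZT5, and its 6 livers of ZT5 and ZT9 lay above all the others. Its peak was at 6.93 h (95% interval 5.78 to 8.07 h) and the adjusted p was 0.000305. Between and beside them Abca9 (mean 4.66, adjusted p = 0.993) and Abca5 (mean 7.03, adjusted p = 0.922) were low and did not pass. The neighbours thus had 3 different fitted peak times, 2.36, 5.04 and 6.93 h, and 2 of the 5 were not called. Differences between neighbours were not tested, and reads common to Abca8a and Abca8b were divided by estimate.

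**Figure D5:**
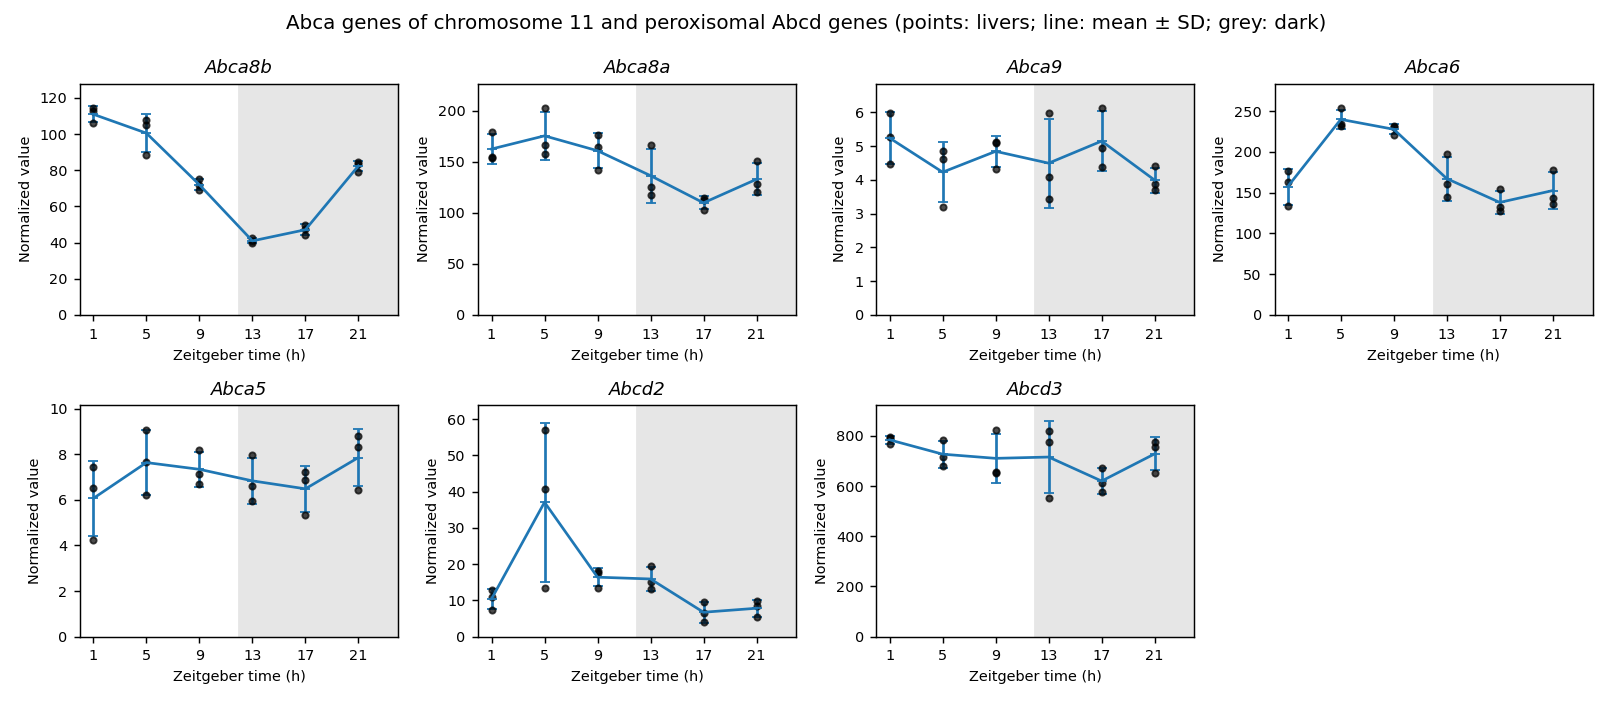
Normalized value (y axis, from 0) of the 5 Abca genes of chromosome 11 and of the peroxisomal genes Abcd2 and Abcd3 against zeitgeber time in hours, with a point per liver, the line through the mean of 3 livers and the SD as a bar; grey is the dark phase. Abca8b falls from ZT5 to ZT13, Abca6 is high at ZT5 and ZT9, Abcd2 is high in 2 of the 3 livers of ZT5, and Abca9, Abca5 and Abcd3 did not pass the 24 h test.

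Abca2, Abca7 and Abcg1 complete the called lipid genes and are given here because they were called, outside the rule for naming genes. Abca2, a transporter of late endosomes and lysosomes, was highest at ZT1, 70.6, 70.5 and 65.1, and lowest at ZT13, 38.6, 51.02 and 38.4, with a peak at 0.457 h (adjusted p = 0.000396). Abca7, a phospholipid transporter, gave 5.95, 4.80 and 6.04 at ZT9 and 9.91, 7.66 and 10.96 at ZT17 (adjusted p = 0.0489). With 1 liver left out it passed only where that liver was of ZT21, and without 1 of the 15 others the adjusted p was up to 0.106. With all 18 livers it was also lost with a pseudocount of 0.5 or none (adjusted p = 0.0516 and 0.0555), with column total scaling (0.124), with a variance trend (0.0534) and under a cosine with a free period. Abcg1, which exports cholesterol and is known from macrophages, was low, 4.30, 8.62 and 8.20 at ZT9 and 3.05, 1.95 and 5.73 at ZT17, which overlapped, with an adjusted p of 0.0117 and no call under a free period. The summed value of the 6 Kupffer cell markers (Clec4f, the most abundant, Adgre1, Cd68, Vsig4, Marco and Timd4, none at 0 reads) was high and low in much the same livers. It was 120.0, 144 and 139.5 at ZT9 and 108, 66.5 and 152 at ZT17, and at the other times 146, 105 and 70.6 at ZT1, 160.2, 116 and 129 at ZT5, 117, 116 and 149.8 at ZT13 and 68.2, 98.3 and 99.7 at ZT21. Both livers in which Abcg1 was lowest, ZT21 replicate 1 at 1.90 and ZT17 replicate 2 at 1.95, had the lowest Kupffer sums. They also had the lowest endothelial sums, 90.4 and 86.1. ZT21 replicate 1 had the lowest lymphocyte and neutrophil sum as well, 5.61. The part of any of these cells in the rhythm of Abcg1 was not tested.

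The 16 remaining members held 2 called genes (12.5%, beside 35.3% of all genes), and 4 when livers were scaled by their column totals, which added Abcc1 and Slc22a23. Slc22a15 was highest at ZT21, 16.2, 12.3 and 15.4, and lowest at ZT13, 7.38, 7.69 and 8.61, which did not overlap (peak 0.853 h, adjusted p = 0.000496). Slc22a28, of a cluster of liver Slc22a genes on chromosome 19, gave 26.1, 31.5 and 26.5 at ZT1 and 14.8, 14.2 and 10.9 at ZT13 (ratio 2.1, adjusted p = 0.0132, not called under a free period). Its relative Slc22a30 was the most abundant of these 16, at a mean of 298, and did not pass (adjusted p = 0.148). Abca14, Slc22a17, Slc22a21, Slc22a26 and Slc22a27 had a mean below 1 and none passed; Abca14 was at 0 reads in 2 livers and Slc22a27 in 1. The highest ratio among these low genes, 4.51 for Slc22a26, came from as few as 1 estimated read per liver. Abcc1, Abcc9, Abcc10, Abcg3, Slc22a18, Slc22a23, Slco1a6 and Slco3a1 did not pass, at adjusted p between 0.0928 and 0.946.

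Per length of exon the highest of the members named here were Slco1b2 (207 per kb), Slco1a1 (116), Abcd3 (108), Slc22a30 (88.5) and Abcc2 (64.03). Of these 5, Slco1b2, Slco1a1 and Abcc2 were called, and Abcd3 and Slc22a30 were not. Among canalicular genes Slc47a1 (29.9), Abcg5 (25.2), Abcb4 (23.8) and Abcg8 (18.2) followed Abcc2, while Abcb1a stood at 0.659. The levels are means over the whole day and over 18 livers.

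Genes that act on or beside these transporters were read from lists. The clock genes check the time labels: Arntl, which encodes BMAL1, was at 31.6 at ZT1 and 1.31 at ZT9, Nr1d1 was highest at ZT5 (117), Dbp at ZT9 (111) and Per2 at ZT13 (103). All 12 listed clock and PAR bZIP genes were called, beside 35.3% of all genes, among them Tef with a peak at 10.7 h and Hlf at 12 h. Of the 14 receptors and factors known to act on transporter genes 11 were called, 4 with a peak in the light and 7 in the dark, beside 18.2% and 17.1% of all genes. Ppara, the fatty acid receptor, peaked at 8.33 h (95% interval 7.09 to 9.57 h) and ran from 64.9 at ZT1 to 121 at ZT9 (adjusted p = 0.000604). Its interval overlapped those of Abcg5, Abcc2 and Abcd2, and also those of other called members such as Abca6 (5.78 to 8.07 h) and Slco1b2 (5.28 to 8.8 h). The interval of Abcg8 ended at 7.08 h, just before that of Ppara began. Differences in peak time were not tested. By fitted peak the receptors of foreign compounds came later than Ppara, Nr1i2 (PXR) at 14.4 h and Nr1i3 (CAR) at 13.3 h. The highest time mean of Nr1i3 was in the light, however, 266 at ZT9 beside 237 at ZT13 and 242 at ZT17. JTK (q = 0.156) and MC (q = 0.121) did not call Nr1i3. Later fitted peaks were also those of the bile acid receptor Nr1h4 (FXR) at 15.6 h and the oxysterol receptor Nr1h3 (LXR alpha) at 16.6 h. Nr0b2 (SHP), a repressor, peaked at 0.418 h with a ratio of 4.84, Hnf4a at 12.8 h with 1.54 and Rxra at 9.41 h with 1.34. Nr1h2 was called at 0.0197, and Nfe2l2 (NRF2), Ahr and Rora did not pass (0.602, 0.662 and 0.0594).

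Of 10 genes for scaffold, trafficking and partner proteins 4 were called, beside 35.3% of all genes, 2 with a peak in the light (18.2%) and 2 in the dark (17.1%). Slc9a3r1, which ties membrane transporters to the cytoskeleton, ran from 151 ± 12.9 at ZT1 to 257 ± 19.1 at ZT13 (adjusted p = 2.83e-06). Rdx, the radixin that holds canalicular exporters in place, peaked at 4.59 h with a ratio of 1.39 (adjusted p = 0.00279). The phospholipid flippase Atp8b1 of the canaliculus peaked at 21.7 h (ratio 1.58, adjusted p = 0.00286), and Slc9a3r2 was called at 0.0278. Of the 9 measured of 10 other liver carriers, 5 were called, 2 with a peak in the light and 3 in the dark, beside the same shares of all genes. Slc2a2, the hepatic glucose carrier, ran from 230.2 at ZT1 to 436 at ZT9 with a peak at 9.34 h (adjusted p = 4.20e-05), and the urate carrier Slc2a9 peaked at 7.56 h (adjusted p = 0.000386). The dark-peaking carriers were the monocarboxylate carrier Slc16a1 (20.3 h, ratio 2.04), the nucleoside carrier Slc29a1 (17.2 h, ratio 1.51) and Slc17a1 (21.8 h). Slc10a1, the sodium-driven bile acid uptake carrier, did not pass (ratio 1.34, adjusted p = 0.0695).

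Markers were read for the cells a whole liver can hold. The 6 hepatocyte markers, with albumin (Alb) the most abundant, summed to between 73885 and 104417 per liver, lowest at ZT9 and highest at ZT17, and 2 of the 6 were called, Ttr and Cyp2e1, beside 35.3% of all genes. Called markers of other cells were 2 of 6 endothelial (Stab2 and Kdr), 2 of 6 Kupffer (Marco and Timd4) and 3 of 5 bile duct genes (Krt19, Epcam and Sox9), and 0 of 6 stellate, 0 of 5 measured lymphocyte and neutrophil and 0 of 4 red cell genes. ZT5 replicate 1 had the highest sums for endothelial, Kupffer, stellate, lymphocyte and neutrophil, and red cell markers, the last at 567 beside 19.4 to 293.9 in the other livers. Without that liver the adjusted p of Abcd2 in the 24 h test was 0.00428, and the part of other cells in the highs at ZT5 was not tested. The 4 pancreas and 3 kidney markers were looked up and were not among the genes tested. Of the 3 gut markers only Fabp2 was, at 45.0 to 70.5 per liver.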

How the data were processed

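RNA of 18 mouse livers was sequenced as 50-nt single reads. Per the labels and the study's methods, the authors processed reads with CASAVA 1.8.2, removed adapters with Cutadapt, estimated counts with RSEM 1.2.20 on the GRCm38 transcriptome (Ensembl 84) and normalized them with limma. The deposited table holds a linear signal, in which 0.5 was added to each estimated count before scaling to 1000000 reads of the library, with a library size that limma had adjusted. A liver's smallest value is therefore that of 0 reads. Between 39.1% and 47.9% of values per liver were whole reads within 0.005, so count tests were not used. Whether counting used strand is not given in the sources used here. The labels give no liver a replicate number, and p-values measure the spread between animals.

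Of 14451 genes, 2 were at 0 reads throughout and were left out. log2(value + 1) was fitted with limma 3.58.1 in R 4.3.3: a 24 h cosine, 6 time means, neighbouring steps and a 12 h term, with Benjamini–Hochberg adjustment over 14449 genes and calls at 0.05. JTK and MC, with periods of 20 to 28 h, were written again in Python 3.11.15 (numpy 2.4.6, pandas 2.3.3, scipy 1.17.1). Peak intervals count 95%. Coordinates and exon lengths are from GENCODE M21 on GRCm38, and promoter windows from RefSeq GRCm38.p6. The scripts were tested on simulated data.

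Members, groups, gene lists, motifs and tests were chosen with earlier results of these data known. Named by rule were all canalicular and sinusoidal members, the 3 most abundant of each other group and, among the rest with a mean of at least 1, the 6 called with the largest ratio. The lists outside the family were receptors and factors, clock and PAR bZIP genes, scaffold proteins, other carriers and cell markers. A few genes of these lists and groups are counted but not reported by name here. Alternatives covered the pseudocount, a mean filter of 1, scaling, variance trend, liver weights, a free period, a q of 0.1 and each liver left out.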

Additional observations from a re-analysis of the deposited data

How the results depend on the processing

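The 24 called members became 9 under a cosine whose period was free between 20 and 28 h and whose R-squared had to reach 0.7, which is the cosine curve of CircaN alone, and the share of all genes called fell from 35.3% to 11.2%; the cause was not tested. Under the 7 other settings the count lay between 22 and 26. Leaving out each liver in turn gave 19 to 24 called members, 16 to 20 that differed among the 6 times (19 with all livers), 17 to 20 with a light peak, 2 to 4 with a dark peak, 0 to 0 for the 12 h term, 4 to 10 by JTK and 9 to 13 by MC. The dark count of 2 was that without ZT5 replicate 2 or ZT17 replicate 2, when Slc22a7 and Abca7 dropped out. JTK gave 4 without ZT5 replicate 2, 6 without ZT17 replicate 1 or 2 and 7 without ZT1 replicate 3, any liver of ZT5 but the second or any liver of ZT9. Over all genes JTK called 2105 with every liver, 1299 without ZT5 replicate 2 and 1659 and 1696 without ZT17 replicates 1 and 2. Of 666 recomputed ratios of named or called members 1 moved by more than the spread between replicates, that of Abcc4 to 2.38 without ZT21 replicate 3, and 0 results reversed. Among the outside lists, Slc9a3r2 (4 livers) and Nr1h2 (2) lost their call and Rora (2) and Slc10a1 (2) gained one when single livers were left out, and Rora and Slc10a1 also passed with column total scaling or a variance trend and Tmem30a with column total scaling. No paired analysis was possible because the labels give no replicate numbers and each animal was sampled once. The 6 other CircaN curves were not run. Depth limits Abcb1a, Abcc4 and the 5 members with a mean below 1, and 6 times of 3 livers cannot tell a sharp peak from a broad one.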
